A study of Bos grunniens with 6 samples.

Results

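Membrane transporters of the solute carrier (SLC) and ATP-binding cassette (ABC) families were read out from an N6-methyladenosine (m6A) survey of cattle-yak testis. The genes were taken by name, as every gene identifier of the peak list whose symbol begins with SLC and a family number, with SLCO, or with ABC, a letter from A to G and a number. This gave 156 identifiers (139 SLC and 17 ABC) under 145 symbols in 43 families, with 266 peaks, among 8986 identifiers and 16186 peaks in all. Cattle-yaks are F1 hybrids of cattle and yak whose males are sterile. Testes of 3 healthy cattle-yaks aged 5 years, taken by castration and labelled TES5, TES6 and TES7, each gave 1 library of RNA pulled down with an anti-m6A antibody (IP) and 1 of the RNA put into the pull-down (input). There was 1 condition with no treatment and no other genotype, so no contrast between groups could be made. Peaks form a single list for the 3 animals without scores, so no peak has a value per animal, whereas expression was given per animal as FPKM (fragments per kilobase of transcript, scaled to the size of the library) in the 3 input libraries. The authors report the range of clean data per sample. The number of reads behind each value is unknown, because FPKM keeps no read numbers.

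Solute carriers move ions, sugars, amino acids, vitamins and metals along gradients, while most ABC proteins spend ATP to pump lipids, drugs and conjugates. In the testis, Sertoli cells form the blood-testis barrier and pass nutrients to the germ cells behind it, lactate among them, and sperm depend on chloride, bicarbonate and proton exchange. m6A is the most abundant internal mark of mRNA and tends to lie near stop codons and in 3' UTRs.

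Several transporter symbols in the list stood on gene models annotated as something else. The gene ontology and pathway terms that the list pairs with each identifier were read beside its symbol, a check that was made after the values were seen. For 89 identifiers the terms named a carrier, a membrane or the gene's own protein. For 25 identifiers they named another kind of protein, for 23 they were those of a retroelement, for 12 they gave only nucleus or cytoplasm, and 7 had no usable term. The identifier listed as *SLC34A3*, a kidney-type sodium phosphate carrier, had terms for microtubules and structural constituent of cytoskeleton, and the gene next to *SLC34A3* in the RefSeq yak annotation is *TUBB4B*, a beta tubulin. The one listed as *SLC26A3*, a chloride bicarbonate exchanger, had the terms RNA N6-methyladenosine methyltransferase complex and mRNA methylation, and its RefSeq neighbour is *CBLL1*, which encodes a protein of that complex. The same held for *SLC12A4* (terms of the lecithin-cholesterol acyltransferase, neighbour *LCAT*), *SLC24A4* (Rab exchange factor, neighbour *RIN3*), *SLC43A2* (phosphatidylinositol transfer, neighbour *PITPNA*), *SLC26A6* (a G protein-coupled receptor of cell adhesion, neighbour *CELSR3*), *SLC37A3* (Rab GTPase, neighbour *RAB19*) and 1 of the 2 identifiers of *SLC35E1* (mediator complex, neighbour *MED26*). Retroelement terms stood on 16.7% of the 7944 identifiers with a peak and any term, and on 15.5% of the 148 transporter identifiers with any. The other classes were read for the transporter identifiers only. Whether terms of another protein are more common on them than on all identifiers with a peak was not tested. Below, identifiers with terms of another protein are marked as such, since which gene their reads and peaks come from was not tested. Retroelement terms and terms for nucleus or cytoplasm alone are mostly not marked. *ABCD3*, *SLC44A1* and *SLC25A26* had the former, and *ABCA1*, *SLC6A20* and *SLC2A5* the latter, among others.

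Fewer transporter symbols had a peak than symbols in general. Of 413 transporter symbols of protein-coding genes in the RefSeq table, 138 were in the peak list (33.4%, 95% Wilson interval 29.0% to 38.1%), against 45.2% of all 16457 named symbols (44.4% to 45.9%), transporters included. The share was 37.5% for the 40 ABC symbols (24.2% to 53.0%) and 33.0% for the 373 SLC symbols (28.4% to 37.9%). It was 34.3% when the 11 symbols of families numbered above SLC52, whose genes may carry older names in the peak list, were left out. Of the 28 families with at least 5 symbols, the anion exchanger family SLC26 had the highest share, with 8 of 10 symbols (49.0% to 94.3%). It was followed by the zinc exporters SLC30 and the sodium calcium potassium exchangers SLC24, with 6 of 10 and 3 of 5. At the other end, SLC13 (sulfate and citrate), SLC17 (organic anions and vesicular glutamate) and SLC27 (fatty acid transport proteins) had none of their 5, 8 and 6 symbols in the list. The organic anion transporters SLCO had 1 of 10 and the organic ion transporters SLC22 had 2 of 16. The interval of SLC26 lay above the share over all symbols and those of SLC13, SLC17, SLC22, SLC27, SLC38 and SLCO lay below it. Of the 8 SLC26 identifiers, however, only *SLC26A2* had carrier or membrane terms, and 3 carried terms of another protein. *SLC26A4* and *SLC26A5* had terms of a retroelement, *SLC26A8* those for nucleus or cytoplasm alone, and *SLC26A11* no usable term. In addition, 9 peaks of *SLC26A11* were annotated to exons of another gene model. Expression and length of the transporter genes without a peak were not matched here, and the part of either in these shares was not tested.

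**Figure D1:**
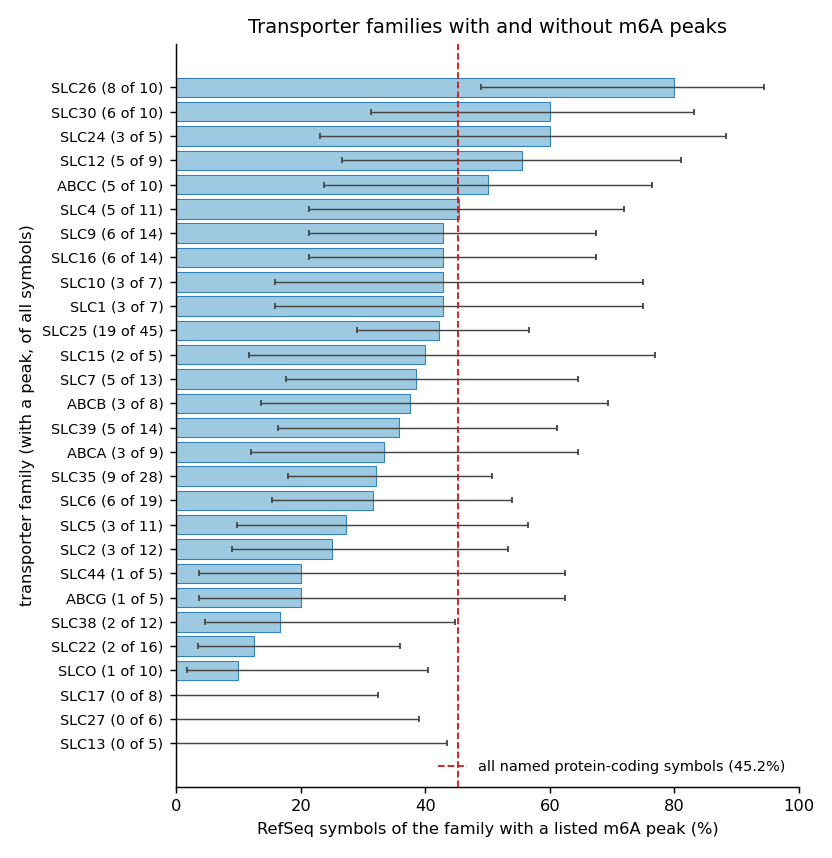
Share of the RefSeq symbols of each transporter family with at least 5 symbols that carry a listed m6A peak, in percent. Bars are shares, lines are 95% Wilson intervals (counting error only) and the dashed line is the share over all named protein-coding symbols. SLC26 (8 of 10) is at the top, and SLC13, SLC17 and SLC27 at 0.

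Most transporter genes had 1 peak. Of the 156 identifiers, 89 had 1 peak (57.1%, 49.2% to 64.6%), against 54.0% of all genes with a peak. A further 38 had 2 (24.4%), 21 had 3 (13.5%) and 7 had 4 (4.49%), and a single identifier, *SLC26A11* with 10, had 5 or more (3.28% of all genes did). Of the 8 identifiers with at least 4 peaks, 5 had terms of another protein (*SLC12A4*, *SLC24A4*, *SLC30A4*, *SLC37A3* and *SLC4A9*). The remaining ones were *SLC26A11*, the magnesium carrier *SLC41A1* and the sugar carrier *SLC2A12*. Peaks in all 3 annotation classes were listed for *SLC12A7*, *SLC30A4* and *SLC9A3R1*, 3 of 156 (1.92%), beside 1.87% of all genes.

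Transporter peaks were narrower and lay in UTRs more often than peaks at large. The exon class held 152 of the 266 peaks (57.1%, 51.1% to 62.9%), against 70.3% of all peaks (69.6% to 71.0%). A further 78 lay in 3' UTRs (29.3%, 24.2% to 35.1%), where 20.8% of all peaks did. The remaining 36 lay in 5' UTRs (13.5%, 9.94% to 18.2%), where 8.82% of all peaks did. In each class the interval of the transporter peaks did not overlap that of all peaks, but peaks of one gene are not independent and the intervals cover counting error only. Genes with peaks in both UTRs and none in the exon class numbered 9 (5.77%, 3.06% to 10.6%), against 2.09% of all genes. The median width on the genome, introns included, was 447 bp against 1022 bp. A width of at most 1000 bp was found for 179 of 266 (67.3%, 61.4% to 72.7%), and for 49.8% of all peaks. The transporter peaks were narrower within each class, with medians of 704 bp against 1333 bp for exons, 298 bp against 447 bp for 3' UTRs and 370.5 bp against 1985 bp for 5' UTRs. The listed transcripts of their genes spanned a median of 35515 bp, against 28454.5 bp over all genes. For the 89 identifiers with carrier, membrane or own-protein terms the median was 22315 bp. The part of transcript span in the widths was not tested. Restricted to those 89, the share of narrow peaks was 77.6% (70.4% to 83.5%) and that of the exon class 53.9% (46.0% to 61.7%), over 152 peaks. The 23 identifiers with retroelement terms had listed transcripts with a median span of 90067 bp, and 36.7% of their 30 peaks were narrow (21.9% to 54.5%). In transcripts with 3 or more numbered exons, 19 of 73 narrow exon peaks of transporters were in the last one (17.3% to 37.1%), a share like the 25.6% over all genes.

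**Figure D2:**
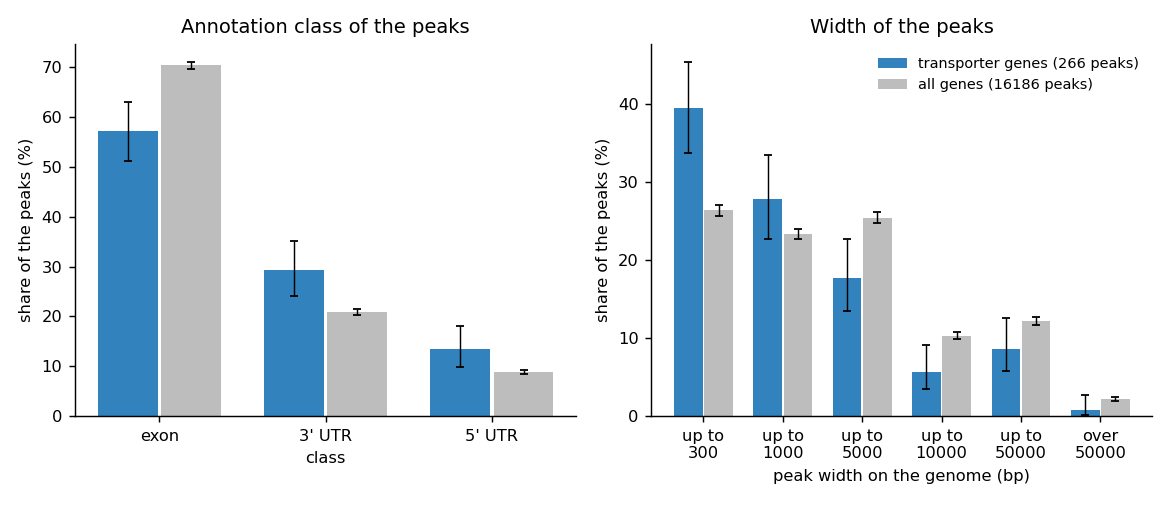
Annotation class (left) and width on the genome in bp (right) of the peaks of transporter genes (blue, 266) and of all genes (grey, 16186), as shares in percent with 95% Wilson intervals. Each width bin runs from above the limit of the bin before it to its own. The exon share is 57.1% against 70.3%, and the share of at most 300 bp is 39.5% against 26.4%.

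The levels of the transporter mRNAs were moderate. The median of the mean FPKM was 5.74 over the 156 identifiers (quartiles 2.3 and 12) and 7.36 over the 8775 genes with a peak and an FPKM. All 3 input libraries reached an FPKM of 1 for 128 (82.1%, 75.3% to 87.3%), against 86.9% of all genes with a peak, and one of 10 for 43 (27.6%) against 35.5%. No transporter identifier was listed at 0 in all 3 libraries. In bulk tissue, fewer cells of a type and less RNA per cell cannot be told apart. Of the cell type markers, symbols were matched only for genes with a peak. The 4 Sertoli markers used (*SOX9*, *WT1*, *DHH* and *FSHR*) summed to 77 to 90.6 FPKM, the Leydig marker *STAR* gave 100.2 to 112 and the 3 myoid markers 278 to 316. The 3 spermatogonial markers summed to 15.8 to 24.2 and the 4 spermatocyte markers to 35.1 to 47.6, the latter with 1 of 4 *SYCP2* identifiers at 0. None of the 6 spermatid markers had a symbol in the list, so their levels were not analysed here.

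**Figure D3:**
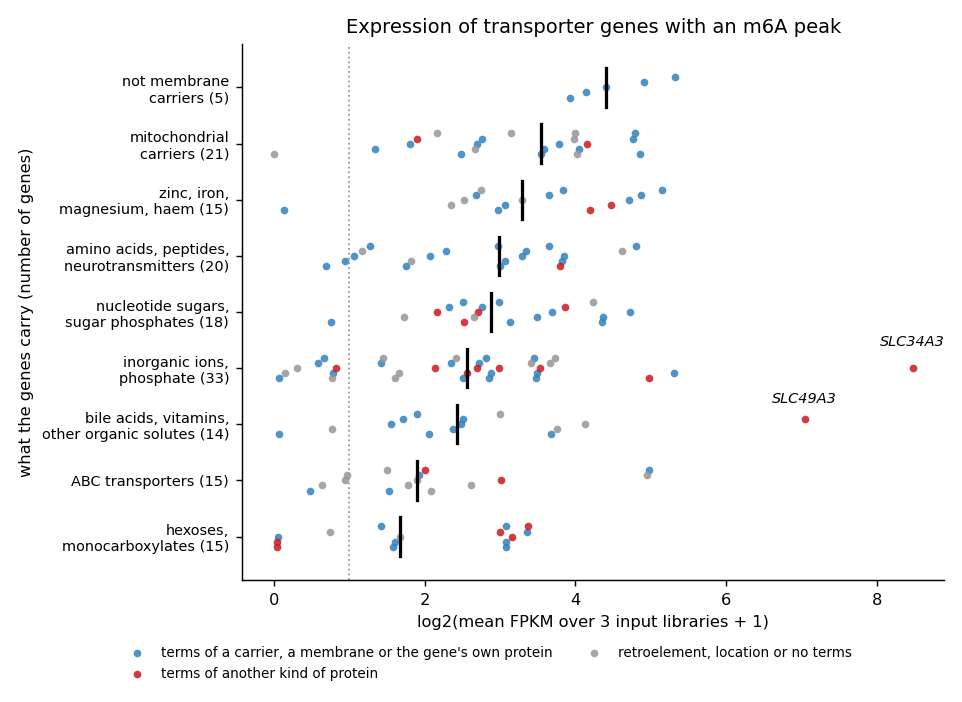
Mean FPKM over 3 input libraries of the 156 transporter identifiers, on a log2(FPKM + 1) axis, by what the genes carry. Each point is 1 identifier, coloured by its gene ontology terms, the vertical bar is the median of the row, and the dotted line is an FPKM of 1. The 2 highest points are the identifiers listed as *SLC34A3* and *SLC49A3*, both with terms of another protein.

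The 33 carriers of inorganic ions and phosphate had 66 peaks, 50 of them in the exon class (75.8%, 64.2% to 84.5%), an interval that holds the 70.3% over all peaks. *SLC20A1* (ENSBGRG00000013607), a sodium phosphate carrier of most cells, was the highest of those with carrier or membrane terms. It gave an FPKM of 42.1 in TES5, 35.1 in TES6 and 38 in TES7 (38.4 ± 3.52, SD, n = 3). Its 707 bp peak lay in exon 6 of 9, on chromosome 9 of LU_Bosgru_v3.0 from 68296961 to 68297667. The identifier listed as *SLC34A3* (ENSBGRG00000011047) was far above it, with 447 in TES5, 321 in TES6 and 292 in TES7 (353 ± 82.6), rank 78 of the 20953 genes with an FPKM. TES5 was the highest and TES7 the lowest. Its transcript spans 1920 bp and its 244 bp peak lay in the 3' UTR, on chromosome 9 from 16180459 to 16180702. The identifier listed as *SLC24A4* was nearly level between the animals, with 29.3, 30.4 and 32.1 in TES5, TES6 and TES7, and had 4 peaks, a pair in exon 6 of 10 and a pair in the 3' UTR.

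Genes of anion and proton exchange in sperm and germ cells that carried a peak were at low or moderate expression, while *SLC9A8* and *SLC4A2* had no peak. *SLC26A8*, a testis anion transporter of the sperm annulus, gave 3.36 in TES5, 2.58 in TES6 and 0.542 in TES7, TES7 being far below the others. Its 1092 bp peak lay in exon 18 of 19 on chromosome 24, from 26525517 to 26526608. *SLC9C1*, the sodium proton exchanger of the sperm tail, gave 0.804, 0.582 and 0.741 in the same order and had the narrowest transporter peak, 146 bp in exon 4 of 4. Both identifiers had only the terms nucleus and cytoplasm. *SLC12A2*, the sodium potassium chloride carrier, gave 3.63, 4.45 and 4.25, with peaks in exons 1 and 25 of 27. The epithelial exchanger *SLC9A3* was close to 0, at 0.101, 0.0391 and 0.0143, with TES5 highest, yet it had 3 peaks in exons 1, 4 and 15 of 17, the first of them 24708 bp wide. The identifiers listed as *SLC26A3* (mean FPKM 4.9) and *SLC26A6* (0.774) were those with terms of another protein.

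The high peak number of *SLC26A11* rested on another gene model. This anion transporter (ENSBGRG00000022237, plus strand of chromosome 19) gave an FPKM of 8.9, 9.68 and 10.3 in TES5, TES6 and TES7. Of its 10 peaks, 9 were annotated to exons 5 to 36 of the 69 exons of an unnamed gene (ENSBGRG00000022479) that shares 128952 bp with it on the same strand and has no FPKM. The tenth, of 298 bp, lay in the 3' UTR of a shorter listed transcript of 16486 bp, from 12679034 to 12679331, and the other peaks began 74847 bp or more from the transcript start, past its end. The RefSeq neighbours of *SLC26A11* are *SGSH* and *RNF213*, the latter a large ubiquitin ligase. *SLC4A9*, named for an anion exchanger, also had listed transcripts of 60624 bp and 113486 bp and 4 exon peaks of 3580 to 25070 bp. Its terms were RNA binding and innate immune response, its RefSeq neighbours are *HBEGF* and *ANKHD1*, and its FPKM was 9.69, 10.9 and 11. Without *SLC26A11* the exon class held 41 of 56 peaks of the ion carriers (73.2%, 60.4% to 83.0%), and without both genes 37 of 52 (71.2%). Of all 152 transporter peaks in the exon class, 21 (13.8%, 9.22% to 20.2%) carried the exon number of a different identifier or of none, a case met in 4.83% of exon peaks overall. Without *SLC26A11* this was 12 of 143 (8.39%, 4.87% to 14.1%).

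The 20 carriers of amino acids, peptides and neurotransmitters had the fewest exon peaks for their number. Of their 30 peaks, 16 lay in 3' UTRs (53.3%, 36.1% to 69.8%), 7 in 5' UTRs and 7 in exons (23.3%, 11.8% to 40.9%). The last interval did not overlap that of all transporter peaks. *SLC7A1*, the carrier of cationic amino acids (ENSBGRG00000006751), was the highest with 22.4 in TES5, 28.4 in TES6 and 29.6 in TES7, TES5 being the lowest. Its 250 bp peak lay in the 3' UTR on chromosome 15, from 51114578 to 51114827. Its relative *SLC7A2* gave 8.34, 13.7 and 12.6 and had the second widest transporter peak, 53491 bp in the 5' UTR class from 35900660 to 35954150 on chromosome 28. *SLC6A20*, a proline carrier, ran the other way, with 30.6, 21.9 and 17.8, TES5 being the highest, and its 5631 bp peak lay in exon 5 of 11. Of the 7 symbols listed for amino acid exchange and osmolytes, only the glutamine carrier *SLC1A5* had a peak, beside 33.4% of all transporter symbols. It had a 592 bp peak in the 5' UTR and a 247 bp peak in the 3' UTR on chromosome 20 and an FPKM of 5.91, 7.22 and 7.46. The same pairing of a narrow 5' UTR peak with a narrow 3' UTR peak was listed for *SLC1A4* (alanine and serine), *SLC38A7* (glutamine of the lysosome), *SLC43A3* and *SLC6A17*, the last with a second peak in the 3' UTR.

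The glucose carrier *SLC2A1* and the lactate carrier *SLC16A1* were at like levels in the 3 animals, whereas other members of their group varied widely. The 27 peaks on 15 hexose and monocarboxylate carriers lay in exons (14), 3' UTRs (10) and 5' UTRs (3). Of 7 symbols on the list of glucose and lactate supply to germ cells, *SLC2A1*, *SLC16A1* and *SLC16A7* had a peak. The share over all transporter symbols was 33.4%. *SLC2A1*, the basal glucose carrier (ENSBGRG00000011665), gave 7.94 in TES5, 7.35 in TES6 and 7.14 in TES7, and its 198 bp peak lay in the 3' UTR on chromosome 3, from 112619138 to 112619335. *SLC16A1*, the monocarboxylate carrier MCT1 that moves lactate, gave 8.07, 9.71 and 9.87 and had peaks of 744 bp in exon 4 of 6, 497 bp in exon 5 and 446 bp in the 3' UTR. *SLC16A7*, named for a second lactate carrier, gave 7.9, 7.57 and 8.3, but its terms were those of the mitochondrial ATP synthase. These 3 genes had coefficients of variation (CV, the SD as a share of the mean) of 5.54%, 10.8% and 4.6%. *SLC2A5*, a fructose carrier, had the largest CV of the 128 transporters at or above an FPKM of 1 throughout (73.3%). It gave 4.02 in TES5, 1.1 in TES6 and 1.42 in TES7, so that TES5 stood apart from the other 2, and its 149 bp peak lay in the 3' UTR. *SLC2A12*, a glucose carrier, was low at 1.98, 2.13 and 1.84 but had 4 narrow peaks, 3 of 150 to 151 bp within exon 3 of 6 and 1 of 198 bp in the 3' UTR. All 3 identifiers listed as *SLC5A4* had terms of a DNA-binding transcription factor, and 2 of them overlap *ZNF70*.

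Mitochondrial carriers and carriers of zinc, iron, magnesium and haem had the highest median FPKM of the transporters proper, and their order depended on which identifiers were counted. The 21 mitochondrial identifiers had a median of 10.6 and the 15 of metals and haem 8.83. With carrier or membrane terms required these were 10.8 (12 identifiers) and 11.5 (9 identifiers). Of the 21, 19 reached 1 in every library, and the 36 peaks fell equally on exons (16) and 3' UTRs (16), with 4 in 5' UTRs. *SLC25A28*, mitoferrin 2, which imports iron, gave 32.5 in TES5, 26.9 in TES6 and 24.8 in TES7 (28.1 ± 4.02), with TES5 the highest. Its peaks were 7069 bp in exon 1 of 4 and 2011 bp in the 3' UTR, on chromosome 25. Mitoferrin 1, *SLC25A37*, was lower and even, at 5.71, 5.97 and 5.73, with 3 peaks. Of the genes listed for mitochondrial ADP/ATP exchange and iron, *ABCB10* also had a peak, in exon 11 of 11, and none of the ADP/ATP carriers *SLC25A4*, *SLC25A5*, *SLC25A6* and *SLC25A31* did. *SLC25A46*, of the outer membrane, gave 25.4, 29.4 and 25.1, and *SLC25A38*, which carries glycine for haem synthesis, 29.2, 23.9 and 25.2. Both had a single 3' UTR peak, of 498 bp and 683 bp. *SLC25A26*, which brings the methyl donor S-adenosylmethionine into mitochondria, had 3 peaks, all in the 3' UTR class, and an FPKM of 7.66, 8.07 and 7.76. Since some of these peaks overlap, they form 2 intervals when merged. Its terms were of a retroelement, and its listed transcripts overlap *LRIG1* on the opposite strand by 1814 bp.

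The carriers of zinc, iron, magnesium and haem had 28 peaks, 13 in exons, 8 in 3' UTRs and 7 in 5' UTRs. The magnesium carrier *SLC41A1* (ENSBGRG00000013307) gave 34.4 in TES5, 35.6 in TES6 and 33.2 in TES7, a CV of 3.41%. Its 4 peaks were all in UTRs on chromosome 14, a pair of 151 bp and 201 bp in the 3' UTR and a wider pair, of up to 351 bp, in the 5' UTR. Of 28 symbols for zinc, copper and iron, 27 are in the RefSeq table. Of these, 12 had a peak, beside 33.4% of all transporter symbols and 45.2% of all named symbols. They were 6 zinc exporters (SLC30), 5 zinc importers (SLC39) and the iron exporter *SLC40A1*, and 11 of the 12 reached an FPKM of 1. Among the exporters, the identifiers listed as *SLC30A4* and *SLC30A9* had terms of another protein. No copper carrier had a peak. *SLC39A7*, which releases zinc from the endoplasmic reticulum, was the most even of the highest genes, with 28.6, 27.7 and 28.3, and had a 390 bp peak in the 5' UTR on chromosome 24, from 29390912 to 29391301. *SLC39A6*, a zinc importer of the cell surface, gave 26.9, 22.3 and 26.3 and had peaks in exons 1 and 7 of 10. *SLC30A1*, the zinc exporter of the cell surface, gave 11.1, 12.3 and 11.3, with 2 peaks in exon 2 of 2, and *SLC40A1* gave 11.9, 14.4 and 13.6. *SLC39A5* was near 0 in every animal, at 0.181, 0.115 and 0. The identifier listed as *SLC30A4* had 4 peaks, 2 of 147 bp and 148 bp annotated to exons of another identifier, and an FPKM of 17.7, 21.4 and 24.2, with terms of ribosome export and the nucleolus.

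Carriers of nucleotide sugars, sugar phosphates and sugars had 31 peaks on 18 identifiers and a median FPKM of 6.34. *SLC45A4*, a sugar proton carrier, was the highest at 25.2, 27 and 24.2, followed by *SLC35A5* (20.2, 18.1 and 20.3) and 1 of the 2 identifiers listed as *SLC37A2* (18.3, 19.3 and 20.4). The 3 narrow peaks of the latter lie outside its listed transcript. The identifier ENSBGRG00000012944, 1 of 2 listed as *SLC45A3*, had the smallest CV of all transporters, 1.49%, at 18, 17.5 and 18. Its terms were of a retroelement and its 3 peaks lay in UTRs. The second *SLC45A3* identifier, with carrier or membrane terms, gave 3.9, 5.4 and 4.75 and had 1 exon peak. The symbol *SLC35B3*, a carrier of the sulfate donor PAPS, was on 3 identifiers with mean FPKM values of 4.01, 13.5 and 4.75. Carrier or membrane terms stood on the first alone. The second had terms of the aminoacyl-tRNA synthetase complex (the RefSeq neighbour is *EEF1E1*) and the third of the BLOC-1 complex.

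Of the remaining solute carriers, 14 identifiers for bile acids, vitamins and other organic solutes had 17 peaks and a median FPKM of 4.41. The highest was 1 of the 2 identifiers listed as *SLC49A3* (ENSBGRG00000020937), with 157 in TES5, 117 in TES6 and 118 in TES7, rank 267, and a 1121 bp peak in the 5' UTR class on chromosome 6. Its transcript spans 2031 bp and its pathway terms were oxidative phosphorylation and thermogenesis. The other identifier, with carrier or membrane terms, gave 1.66, 1.98 and 2.17. The choline carrier *SLC44A1* gave 15.3, 17.3 and 17, with a 1996 bp peak in exon 14 of 15. Of 7 symbols for vitamins and carnitine, 3 had a peak, beside 33.4% of all transporter symbols. *SLC5A6*, which carries biotin and pantothenate and was counted above with its SLC5 family, gave 7.89, 6.32 and 8.21, *SLC46A1*, which carries folate, 5.2, 4.46 and 4.47, and *SLC22A5*, which carries carnitine, 2.32, 2.37 and 2.12. *SLC51B*, of bile acid export, was near 0, at 0.0557, 0.0525 and 0.0303.

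ABC transporters had 16 of 19 peaks on 15 identifiers in the exon class (84.2%, 62.4% to 94.5%), an interval that holds the 70.3% over all peaks, and a median FPKM of 2.74. *ABCC1*, which pumps glutathione conjugates and drugs (ENSBGRG00000023586), gave 25.1 in TES5, 32 in TES6 and 34.1 in TES7, TES5 being the lowest, and had a 16206 bp peak in exon 12 of 27 on chromosome 26, from 31460351 to 31476556. *ABCD3*, of the peroxisome, gave 23.3, 36.1 and 30.3, again with TES5 the lowest, and a 628 bp peak in exon 19 of 23. The next highest, *ABCA7*, had a mean of 7.04 and terms of a GTPase activator, and the rest were at or below 5.15. Of 8 symbols for drug efflux at the blood-testis barrier, 6 are in the RefSeq table. Those with a peak were *ABCC1*, *ABCC5* (2.28, 2.57 and 3.54) and *ABCG2* (3.02, 3.77 and 2.27), beside 33.4% of all transporter symbols. The terms of *ABCG2* were those of the spliceosome. Of 7 symbols for sterol and lipid export, 1 had a peak, beside 33.4% of all transporter symbols. This was *ABCA1*, which loads cholesterol onto lipoproteins. It gave 3.03 in TES5, 5.96 in TES6 and 6.45 in TES7, about level in TES6 and TES7 and lower in TES5, with peaks in exons 19 and 45 of 50 on chromosome 7.

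Members of the name pattern that carry nothing across a membrane were the highest group, with a median FPKM of 20.2 over 5 identifiers. *ABCF1*, an ABC protein that acts in translation initiation, gave 43.9 in TES5, 39.8 in TES6 and 32.5 in TES7 and *ABCF3* 17.4, 15.5 and 16.9, each with 3 peaks in exons, and *ABCE1* and *ABCF2*, the other ABC proteins of the ribosome, had none. *SLC9A3R1*, a scaffold that binds sodium proton exchangers, gave 33.1, 27.4 and 26.7. *SLC7A6OS* gave 20.9, 19.7 and 19.9 and *SLC2A4RG*, a transcription factor, 14.7, 14.5 and 13.3.

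A few transporter identifiers had peaks with next to no expression in the input. *SLC25A30* was listed at 0 in TES5, 3e-07 in TES6 and 1.4e-05 in TES7. Its 1577 bp peak, in the 3' UTR class, is wider than its listed transcript of 1001 bp. *SLC5A10* gave 0.0414, 0 and 0.0472 and had 3 peaks, *SLC5A9* gave 0.0696, 0.0585 and 0 with 1, and 1 identifier of *SLC5A4* gave 0.0376, 0 and 0.0436 with 1. With *SLC51B*, these were the 5 lowest means. The *SLC5A10* and *SLC5A4* identifiers had terms of another protein, and 1 of the 3 *SLC5A10* peaks was annotated to an exon of another identifier. This *SLC5A4* identifier lies within a second one of that symbol, on the opposite strand, with a mean FPKM of 9.3. Over all 156 identifiers, peak number and mean FPKM had a Spearman's rho of 0.20, and over the 8775 genes with a peak -0.003. The rho of peak number with transcript span was 0.10 over the transporters and 0.29 over all genes. These are descriptions across genes that share the same libraries and peak list.

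The animals gave much the same transporter levels. Pearson's r on log2(FPKM + 1) across the 156 identifiers was 0.976 for TES5 with TES6, 0.971 for TES5 with TES7 and 0.986 for TES6 with TES7. Over all genes with a peak it was 0.982, 0.974 and 0.985 for the same pairs. The median CV was 13.2% over the 128 transporters with an FPKM of 1 or more throughout and 11.6% over the 7629 genes in all that passed the same minimum. TES5 was the animal most often lowest, among transporters and among all genes that passed the minimum. It was the lowest in 59 of 128 transporters (46.1%, against 41.8% of all such genes). It was the highest in 41 (32.0%, against 35.9%), beside 44 for TES6 and 43 for TES7. Without TES5 the median CV over the 2 animals left was 7.66%. Among the 12 identifiers with the highest means, TES5 was the highest in 7 and the lowest in 4. These 12 include *SLC34A3*, *SLC49A3* and *SLC24A4*, with terms of another protein, and *ABCF1* and *SLC9A3R1*, which carry nothing across a membrane. TES5 was the highest in all of those named but *SLC24A4*. Among the 12 with the largest CVs of those reported, TES5 was the lowest in 8 and the highest in 2. Neither these counts nor the CV without TES5 were set beside all genes. Examples with TES5 lowest were *SLC16A5* with 1.27, 2.84 and 2.06 in TES5, TES6 and TES7 and *SLC41A2*, a magnesium carrier, with 3.36, 6.4 and 4.45. The marker sums were also lowest in TES5 for Sertoli cells (77, against 90.6 in TES6 and 84.1 in TES7) and for spermatogonia (15.8, against 18.9 and 24.2). The same held for myoid cells (278, against 316 and 288) and for the single Leydig marker *STAR* (100.2, against 108 and 112). Within these sets *DHH* and *DES* were lowest in TES7, and most of the myoid sum was *ACTA2*. For endothelium the sum was lowest in TES7 (7.83 in TES5, 8.59 in TES6 and 6.71 in TES7). For macrophages it was lowest in TES6 (13.7, 13 and 14.6 in the same order). The sum of the spermatocyte markers was highest in TES5, at 47.6 against 37.1 and 35.1. The part of these cell types in the transporter values was not tested.

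**Figure D4:**
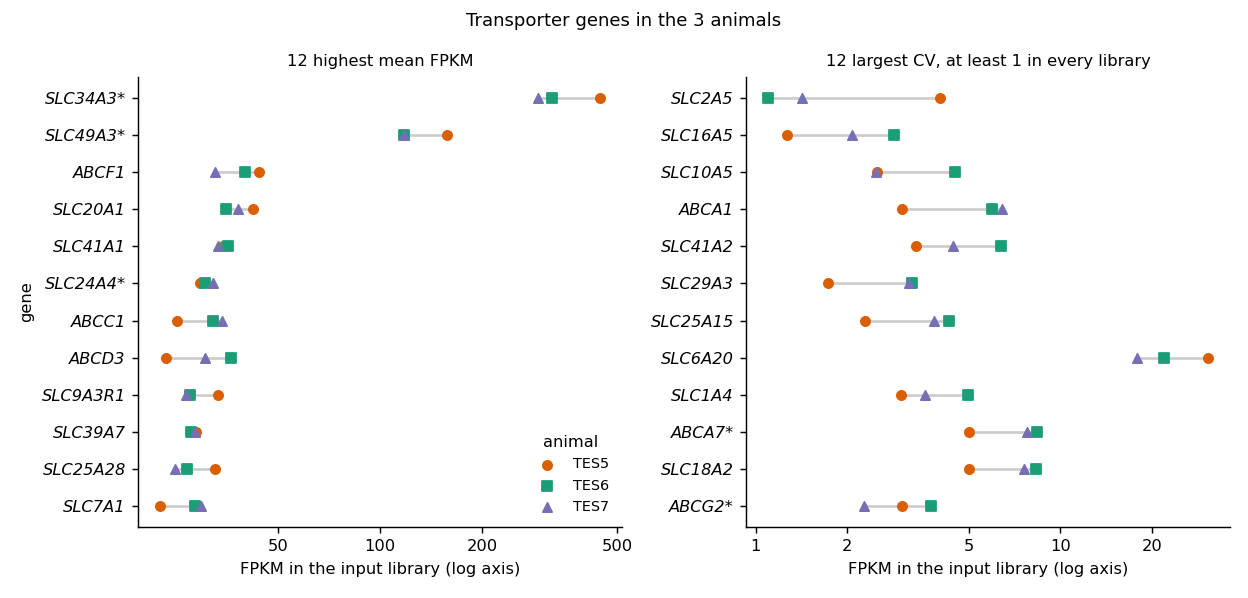
FPKM in the input libraries of TES5 (circles), TES6 (squares) and TES7 (triangles), on a log axis, for the 12 transporter identifiers with the highest mean (left) and the 12 with the largest CV among the reported ones at or above an FPKM of 1 throughout (right). An asterisk marks identifiers with gene ontology or pathway terms of another protein. TES5 is the lowest animal in 8 of 12 on the right.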

How the data were processed

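Peaks and FPKM values of 3 IP and 3 input libraries were used as deposited. The authors trimmed reads (Trimmomatic), removed ribosomal RNA (SortMeRNA), aligned to LU_Bosgru_v3.0 of Ensembl (HISAT2 2.0.4, by the submitters' processing notes), called peaks with MeTDiff against the input and annotated them with ChIPseeker. The program behind the deposited FPKM is not given in the sources used here. Expression was measured in the input libraries only. FPKM values hold no read counts, so no count model was used and no limit of detection could be given.

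Peaks were counted as listed, and listed widths include introns. Shares carry Wilson 95% intervals. Transporters were also counted among the RefSeq symbols of another yak assembly, used for names and neighbouring genes only. FPKM was averaged over the animals. A filter of at least 1 FPKM and a pseudocount of 1 were used. No test was run, as 1 condition was sampled and the peak list has no values per animal.

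Named genes were those with the most peaks, highest FPKM, largest CV among means of at least 10, widest, narrowest or lowest values, those of families with at least 3 members, and those on 9 lists. A few genes are not reported here. Others were chosen after their values were seen, *SLC2A5* among them. The members and lists were chosen with earlier results of these data known. Alternatives were other FPKM minimums, pseudocounts and scalings, merged intervals, symbols in place of identifiers, narrow peaks, width weighting, and leaving out an animal, proteins that are no transporters, or, chosen after seeing the data, identifiers with terms of another protein and exons of another gene. Scripts were tested on simulated data. Tables were made with pandas 2.3.3 and numpy 2.4.6 under Python 3.11.15, intervals with SciPy 1.17.1 and figures with matplotlib 3.10.9.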

Additional observations from a re-analysis of the deposited data

How the results depend on the processing

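The class shares moved most with peak width. With wider peaks than 1000 bp left out, exons held 48.6% and 3' UTRs 38.5%. Weighted by width, the shares were 65.8% for exons, 13.7% for 3' UTRs and 20.5% for 5' UTRs. With carrier, membrane or own-protein terms required, a setting chosen after seeing the data, 89 identifiers with 152 peaks were left, 77.6% of these peaks had at most 1000 bp, 75 identifiers passed the FPKM minimum of 1, and the median FPKM was 6.86. An FPKM minimum of 5 left 80 of 128 identifiers. The rank correlation of peak number with FPKM was 0.081 over the 128 identifiers past the minimum of 1. Leaving out 1 animal gave 128 to 131 identifiers at or above 1, a median FPKM of 5.69 to 6.02, a median CV of 7.66% to 12.4%, the lowest without TES5, and a rank correlation of 0.199 to 0.204. For the 72 identifiers of the naming rule, all 360 means under 5 settings stayed within 1 SD, which leaving out 1 of 3 animals cannot exceed. Merged intervals, symbols in place of identifiers, leaving out proteins that carry nothing, both rescalings and, chosen after seeing the data, leaving out peaks on exons of another gene or the 25 identifiers with terms of another protein moved no share by more than its interval and no count by more than 1.5 times. Without those 25, 56.7% of 215 peaks were in exons and 68.4% were narrow. No paired analysis was possible because IP and input were not both given per animal: peaks are 1 list over the animals, and FPKM covers the inputs. How far depth limits these values was not tested.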

Other observations

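Of the transporter symbols, 9 were on more than 1 identifier, 20 identifiers in all, each set on a single chromosome. The 2 of *SLC25A44* lie 315 bp apart on the same strand of chromosome 3. The first, with carrier or membrane terms, gave 10.2, 10.4 and 11.2 FPKM in TES5, TES6 and TES7 and had 3 peaks. The second, with terms of the MIS12 kinetochore complex, gave 16.1, 16.2 and 18.1 and had 1. The RefSeq neighbour of *SLC25A44* is *PMF1*, a subunit of that complex. The 2 identifiers of *SLC4A5*, a sodium bicarbonate carrier, lie on opposite strands and overlap by 1017 bp, the whole length of the second. The first gave 11.3, 10.2 and 15.4 and had the widest transporter peak, 61307 bp, and the second gave 0.215, 0.371 and 0.112, with a peak that contains its transcript and is annotated to an exon of the first. The listed transcripts of 10 transporter identifiers overlap another gene with a peak. Among these are the 2 identifiers of *SLC4A5* and 2 of *SLC5A4*, which overlap each other, and *SLC15A3*, with an overlap of 4 bp. The same was not counted over all genes with a peak. On the X chromosome lay 6 of the 156 identifiers (3.85%, 1.77% to 8.14%), against 3.47% of all genes with a peak.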
